A study of Mus musculus with 14 samples.

Results

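The transcripts of the proteasome were compared between the livers of 7 krill-fed and 7 control-fed mice. Members were the genes whose platform symbol matched the pattern Psm, then a letter from a to g, then a number, on probe sets listed with a single symbol, and the probe set with the highest mean signal stood for each gene. The pattern found 49 genes on 103 probe sets, of 18193 genes named on the arrays. Psmc3ip and Psme3ip1 match it by name and encode proteins that bind a proteasome component rather than parts of the particle, so they were set apart, which left 47 genes. The arrays came from male CBA/J mice, an inbred strain, housed singly on 84 kcal per week of a diet built on the AIN93M formula. The krill group ate a version holding a krill powder extract from 2 to 5 months of age, and the control group ate the unmodified version over the same 3 months. Protein and lipid totals were matched between the diets, whose amino acids and fatty acids were not the same. Each liver had its own Affymetrix array, and the values are probe set signals on a linear scale. The number of arrays limits the precision.

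The proteasome is the particle that degrades ubiquitin-tagged proteins in cytosol and nucleus. Its barrel-shaped 20S core stacks outer rings of alpha subunits (Psma) on inner rings of beta subunits (Psmb), of which Psmb5, Psmb6 and Psmb7 carry the cutting sites. Interferon gamma induces Psmb8, Psmb9 and Psmb10, which take the places of Psmb5, Psmb6 and Psmb7 in the immunoproteasome and change which peptides are cut for antigen presentation. The 19S cap holds ATPases (Psmc) that unfold substrates and non-ATPase subunits (Psmd) that receive and strip the ubiquitin chain. Psme proteins are alternative activators, Psmf1 binds the core and inhibits it in vitro, and Psmg proteins are chaperones of core assembly.

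Of the 47 proteasome genes 46 passed the signal filter, and 18 rose and 8 fell on the krill diet (limma, Benjamini-Hochberg adjusted p under 0.05 over all 11308 tested genes). This was 39.1% of the members higher and 17.4% lower, while among all tested genes 22.9% were called higher and 24.8% lower, or 47.7% in either direction. The 20S core had 8 of 15 genes higher and 1 lower, and the 19S cap had 4 of 20 higher and 3 lower, shares of 20% and 15%. The cap was counted by name, as all Psmc and Psmd genes, so the genes called higher in it included Psmd5, an assembly chaperone that leaves the finished particle. With quantile normalization the core had 7 higher and 1 lower and the cap 7 higher and 1 lower (limma). Of all tested genes 24.4% were then called higher and 22.4% lower. With arrays scaled on spike-ins the core had 3 higher and 2 lower and the cap 7 lower and 13 that did not pass (limma). On that scale 2.97% of all tested genes were called higher and 48.2% lower. The median log2 change was 0.48 for the 20S core, 0.15 for the 19S cap and 0.04 for all tested genes. Psma7, an alpha ring subunit, rose most, by 4.61-fold, and Psmf1, the inhibitor, fell most, by 2.99-fold. Psmb11, the beta subunit of thymus epithelium, lay below the filter, with signals from 4.02 to 169 in krill livers and from 21.3 to 110 in control livers.

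**Figure D1:**
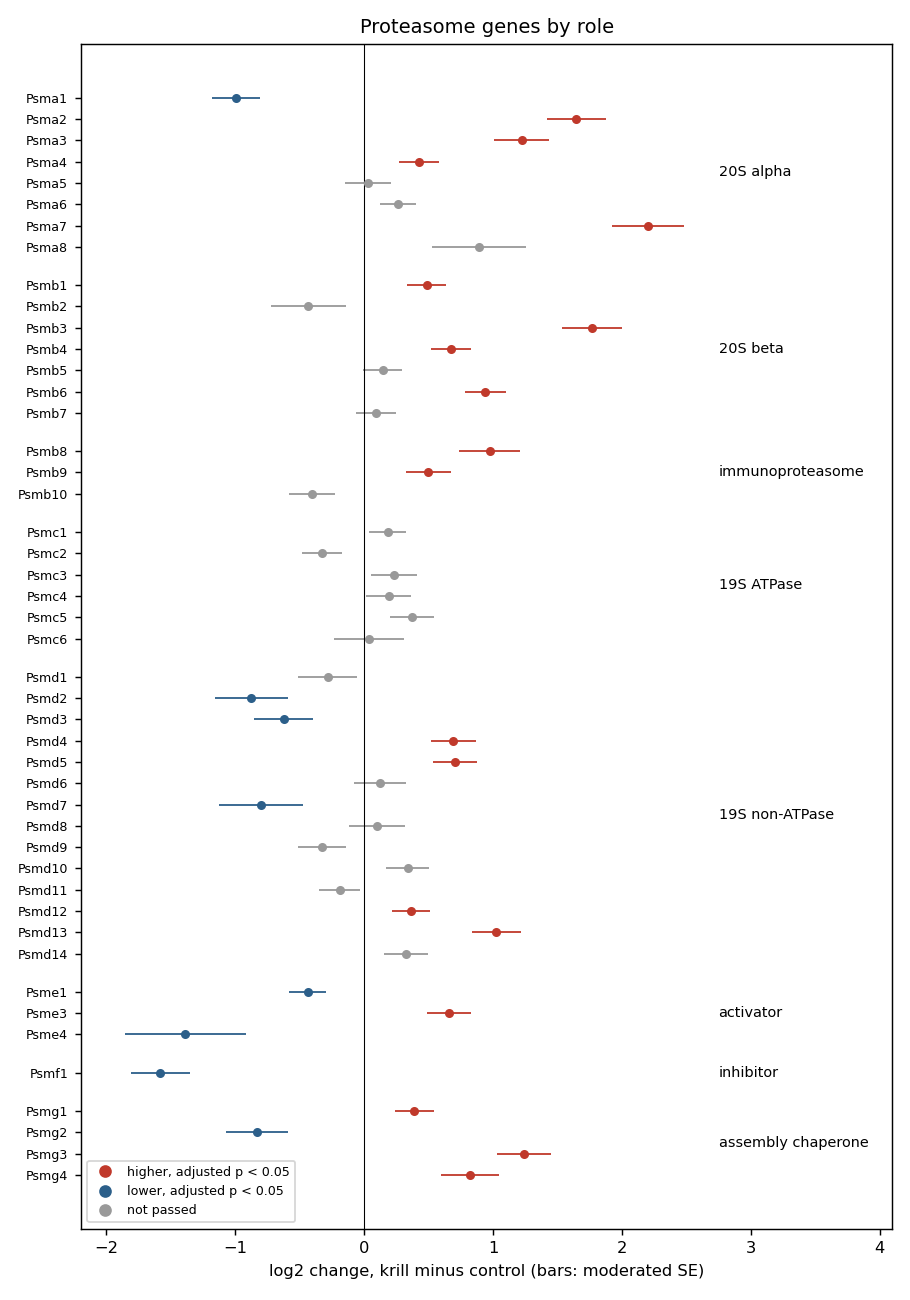
Log2 change (krill minus control, horizontal axis) with its moderated standard error for the 46 tested proteasome genes, grouped by role. Red marks the 18 genes called higher, blue the 8 called lower and grey the 20 that did not pass; Psma7 stands at 2.21 and Psmf1 at -1.58.

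The arrays of the diets differed in technical measures. Hybridisation spike-ins, added in equal amount to each array, had a mean log2 signal of 12.9 to 14.3 in krill arrays and 12.6 to 13.2 in control arrays, and krill replicates 2, 4, 5 and 7 lay above every control array. The 3' to 5' signal ratio of the actin controls, which is larger for shortened RNA, was 2.48 to 3.79 in krill and 1.78 to 2.44 in control arrays, so the diets did not overlap. Because of the spike-in signal, some results below are also given without those 4 krill arrays. There 12.7% of all tested genes were called higher and 19.6% lower. Krill replicates 1, 3 and 6, which were kept, had actin ratios of 3.01, 2.49 and 2.48, still above every control array. Leaving out the 4 arrays thus does not remove the difference in the 3' to 5' ratio. As the samples are whole livers, fewer cells of a type and less RNA per cell cannot be told apart. With the 3' to 5' index of the control probe sets as a covariate, limma called 0 of the 11308 genes, with 1873 genes and 13 of the 46 members at an unadjusted p under 0.05, and since the index does not overlap between the diets, the 2 cannot be told apart. Of 6 tested hepatocyte markers 3 rose, 1 fell and 2 did not pass, while 22.9% of all tested genes were called higher and 24.8% lower. Without the 4 krill arrays 0 of these markers were called higher and 0 lower (limma). The log2 of their summed signal, in which the brightest genes weigh most, was 18.32 to 19.26 in krill and 18.003 to 18.503 in control livers.

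In the alpha ring 4 of 8 genes rose, 1 fell and 3 did not pass. Psma7 had signals of 9794, 25658 and 49597 (lowest, median and highest of 7) in krill livers, against 3493, 5278 and 6772 in control livers. Every krill liver lay above every control liver, and the log2 change was 2.21 (SE 0.28, limma adjusted p = 2.81e-05). Psma2 had 9148, 18889 and 29232 in krill livers, against 4102, 5640 and 7195 in control livers. The groups again did not overlap, with a change of 1.64 (SE 0.23, limma adjusted p = 4.55e-05). Psma3 changed by 1.22 and Psma4 by 0.43, each with 6 of 7 krill livers above all control livers. The call of Psma4 ended without any of krill replicates 4 and 5 or control replicates 1, 3 and 4 (limma adjusted p = 0.00501 to 0.0754 over the 14 fits that each left out 1 array). Psma1, a subunit of the same ring, went the other way, with 1402, 2051 and 3435 in krill livers, against 3682, 4206 and 4503 in control livers. All krill livers lay below all control livers, a change of -0.99 (SE 0.19, limma adjusted p = 0.000383). Psma5 and Psma6 stood at 0.03 and 0.26 and did not pass. Psma8, a testis form of the alpha ring, was dim at 58.4 to 321 in krill and 39.8 to 192 in control livers, with a change of 0.89 that did not pass (limma adjusted p = 0.0521). It passed without krill replicate 1 or 3 or control replicate 2 (lowest limma adjusted p = 0.0124). It lay at the 55.5th percentile of mean signal, and the other 45 tested members lay in the upper 20%.

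In the constitutive beta ring 4 of 7 genes rose and the other 3 did not pass. Psmb3, a structural beta subunit, had 12456, 24699 and 39935 in krill livers, against 4586, 6661 and 10412 in control livers. The groups did not overlap and the change was 1.77 (SE 0.23, limma adjusted p = 3.43e-05). Psmb6, the caspase-like site, had 6148, 9600 and 11266 in krill livers, against 3597, 4748 and 5288 in control livers. It too was higher in all 7 krill livers, at 0.94 (SE 0.16, limma adjusted p = 0.000177). Psmb5, the chymotrypsin-like site, had 2514, 3830 and 4554 in krill livers, against 3088, 3375 and 4057 in control livers, at 0.14 (SE 0.15, limma adjusted p = 0.441). Psmb7, the trypsin-like site, had 10858, 17234 and 19050 in krill livers, against 11096, 15591 and 17042 in control livers, at 0.09 (SE 0.16, limma adjusted p = 0.646). For both the groups overlapped. The structural subunits Psmb4 and Psmb1 changed by 0.68 and 0.48, and Psmb2 stood at -0.43 without passing. Across the rings 5 core genes (Psma2, Psma7, Psmb3, Psmb4 and Psmb6) had every krill liver above every control liver, a pattern that 6.52% of all tested genes shared, and Psma1 had the reverse, which 7.61% shared (14.1% in either direction).

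**Figure D2:**
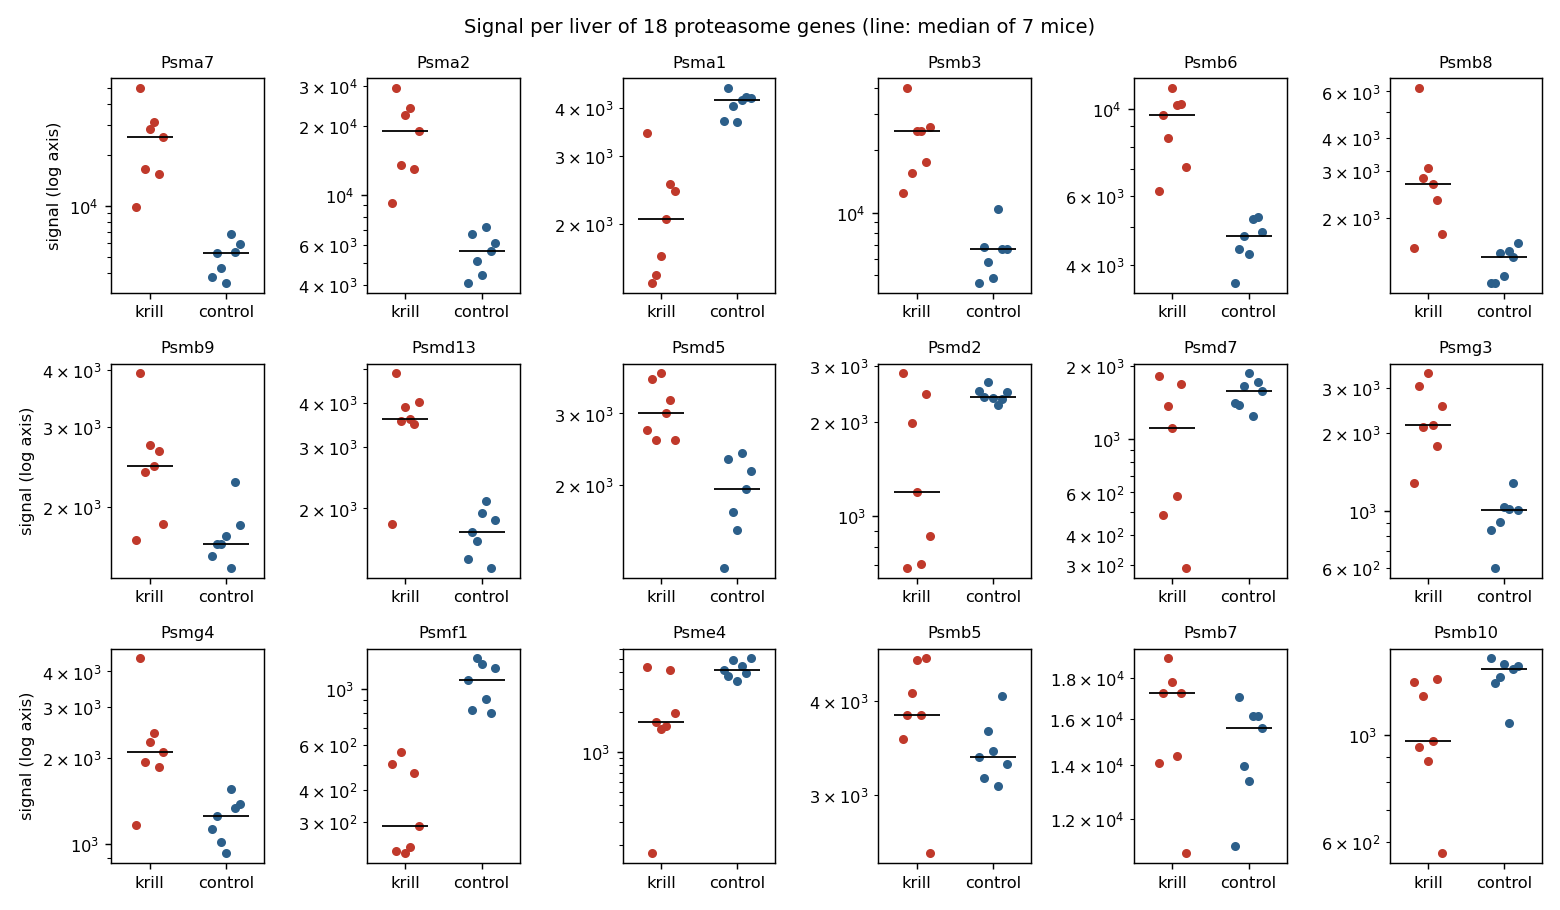
Signal of 18 proteasome genes in each liver (log axis), krill left and control right, with 7 livers per diet and the median as a line. The krill points lie clear of the control points in Psma7, Psma2, Psmb3, Psmb6, Psmd5 and Psmg3 on the high side and in Psma1 and Psmf1 on the low side, while Psmb5, Psmb7 and Psmb10 overlap.

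Promoter windows are shown for 3 core genes that rose without overlap between the diets (Psma7, Psmb3 and the catalytic Psmb6), for Psma1, which fell, and for the immunoproteasome gene Psmb8, so that these differently moving genes can be read side by side. They run from 250 bases before to 50 bases after the annotated start, 5′ to 3′ along the gene, from RefSeq on build GRCm38.p6. Psma7 lies at chr2:180042415-180042714 (minus strand), Psmb3 at chr11:97703184-97703483 (plus), Psmb6 at chr11:70525107-70525406 (plus), Psmb8 at chr17:34197945-34198244 (plus) and Psma1 at chr7:114276067-114276366 (minus). Capitals mark matches, on either strand, to 4 motifs: the core of the antioxidant response element TGACNNNGC, which the proteasome regulator Nfe2l1 can bind, the CCAAT box CCAAT, an interferon regulatory factor element (GAAA, any 2 bases, then GAAA) and the gamma-activated site TTCNNNGAA.
Psma7: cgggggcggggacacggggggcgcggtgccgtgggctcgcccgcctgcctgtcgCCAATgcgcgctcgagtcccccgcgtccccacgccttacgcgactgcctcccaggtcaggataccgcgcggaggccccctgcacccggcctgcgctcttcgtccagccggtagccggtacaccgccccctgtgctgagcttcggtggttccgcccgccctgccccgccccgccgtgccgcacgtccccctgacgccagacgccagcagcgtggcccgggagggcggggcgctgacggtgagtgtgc
Psmb3: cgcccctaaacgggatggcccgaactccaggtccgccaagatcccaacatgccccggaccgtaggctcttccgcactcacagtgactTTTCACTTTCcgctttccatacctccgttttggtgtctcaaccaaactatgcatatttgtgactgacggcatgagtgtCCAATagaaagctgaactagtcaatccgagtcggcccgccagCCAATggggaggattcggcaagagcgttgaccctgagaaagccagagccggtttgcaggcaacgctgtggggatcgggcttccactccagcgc
Psmb6: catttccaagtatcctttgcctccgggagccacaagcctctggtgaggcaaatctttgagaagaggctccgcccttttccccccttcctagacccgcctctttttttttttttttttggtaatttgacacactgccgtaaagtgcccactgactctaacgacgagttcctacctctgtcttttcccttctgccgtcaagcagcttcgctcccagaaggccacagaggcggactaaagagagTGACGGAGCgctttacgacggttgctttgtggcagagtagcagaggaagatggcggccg
Psmb8: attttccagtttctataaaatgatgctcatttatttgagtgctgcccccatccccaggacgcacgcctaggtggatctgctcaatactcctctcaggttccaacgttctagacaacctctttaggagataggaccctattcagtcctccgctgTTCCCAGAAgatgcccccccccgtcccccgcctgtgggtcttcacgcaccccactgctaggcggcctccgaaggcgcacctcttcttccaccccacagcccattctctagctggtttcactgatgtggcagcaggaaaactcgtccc
Psma1: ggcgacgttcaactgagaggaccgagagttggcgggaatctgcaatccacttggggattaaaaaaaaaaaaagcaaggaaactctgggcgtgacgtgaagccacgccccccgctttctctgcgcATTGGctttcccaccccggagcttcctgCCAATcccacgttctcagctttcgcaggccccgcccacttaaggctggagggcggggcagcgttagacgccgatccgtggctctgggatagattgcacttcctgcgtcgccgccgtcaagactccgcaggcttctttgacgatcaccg
Psma7 held 1 CCAAT box, Psmb3 held 2 CCAAT boxes and 1 interferon regulatory factor element, Psmb6 held 1 antioxidant response element core, Psmb8 held 1 gamma-activated site and Psma1 held 2 CCAAT boxes. The CCAAT box was thus in genes that moved in opposite directions, Psma7 and Psmb3 higher and Psma1 lower. A window was found for 39 of the 47 proteasome genes. The antioxidant response element core was in 6 of the 39 (15.4%), against 14% of 27025 genes with windows of this length, and the CCAAT box in 14 (35.9%), against 41.1%. The interferon regulatory factor element was in 5 (12.8%), against 3.99%, and the gamma-activated site in 3 (7.69%), against 9.55%. These are matches of letters and no measure of binding.

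In the immunoproteasome 2 of 3 genes rose. Psmb8 had 1539, 2669 and 6175 in krill livers, against 1131, 1423 and 1598 in control livers. Of the krill livers 6 lay above all control livers, and the change was 0.97 (SE 0.24, limma adjusted p = 0.0029). Psmb9 had 1700, 2459 and 3933 in krill livers, against 1472, 1666 and 2274 in control livers, at 0.50 (SE 0.18, limma adjusted p = 0.0278). Its groups overlapped, and its call ended without krill replicate 2 or 4 or control replicate 1 or 5 (limma adjusted p = 0.0518 to 0.0537). Psmb10 had 570, 971 and 1305 in krill livers, against 1057, 1367 and 1440 in control livers, at -0.40 (SE 0.18, limma adjusted p = 0.0683), with 4 of 7 krill livers below all control livers. It passed without krill replicate 1 or 6 (lowest limma adjusted p = 0.0366). Without krill replicates 2, 4, 5 and 7 Psmb8 stood at 0.69 and still passed, while Psmb9 at 0.35 and Psmb10 at -0.06 did not (limma adjusted p = 0.122 and 0.78).

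Each immunoproteasome site was then set against the constitutive site it replaces, as a ratio within the array, which an overall scaling of the array leaves nearly unchanged. The log2 ratio of Psmb8 to Psmb5 was -1.20, -0.53 and 0.69 (lowest, median and highest of 7) in krill livers, against -1.56, -1.47 and -1.04 in control livers. It was higher by 0.83 in krill (SE 0.24, exact permutation test, two-sided, p = 0.00233, adjusted p = 0.00699 over 3 pairs), with 6 of 7 krill livers above all control livers. The ratio of Psmb9 to Psmb6 moved the other way, at -2.04, -1.94 and -1.28 in krill livers, against -1.82, -1.38 and -1.19 in control livers. The difference was -0.44 (SE 0.13, exact permutation p = 0.00991, adjusted p = 0.0149), with 5 of 7 krill livers below all control livers. The ratio of Psmb10 to Psmb7 was -4.31, -3.97 and -3.44 in krill livers, against -3.91, -3.48 and -2.93 in control livers, a difference of -0.49 (SE 0.17, exact permutation p = 0.0152, adjusted p = 0.0152). The smallest p that 3432 assignments can give is 0.000583. Relative to its constitutive partner 1 immunoproteasome site was thus higher and the others were lower. The last 2 differences depended on the normalization, since with quantile normalization they were -0.25 and -0.06 and did not pass (exact permutation adjusted p = 0.133 and 0.643). With 3 krill livers left the 3 differences were 0.45, -0.46 and -0.25, and none passed (exact permutation adjusted p = 0.05, 0.05 and 0.275). Fewer livers allow fewer assignments, so p moves in coarser steps there, and an adjusted p of 0.05 lies at the threshold.

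**Figure D3:**
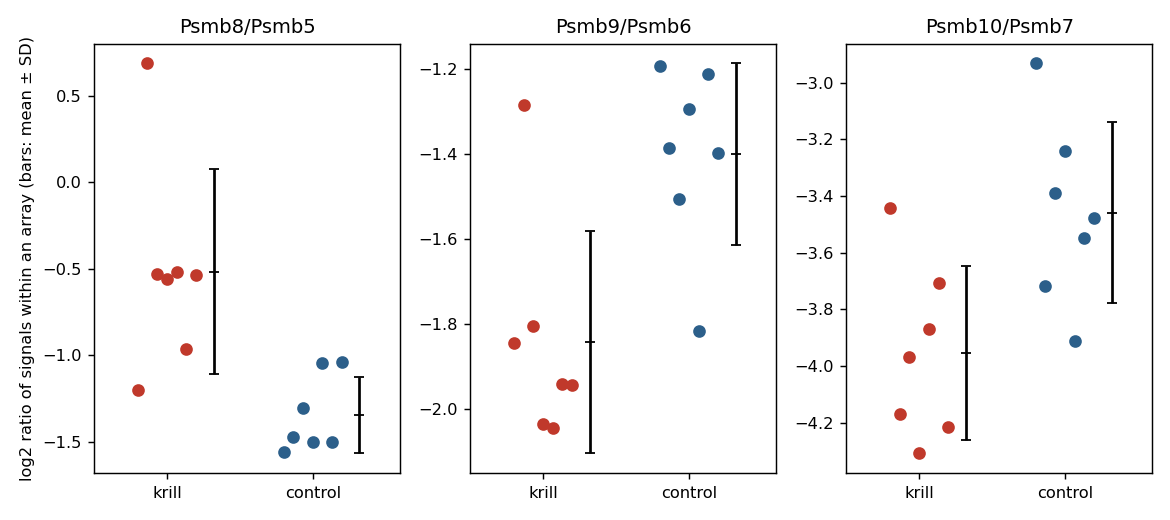
Log2 ratio of each immunoproteasome site to the constitutive site it replaces, within each array, krill left and control right, with mean ± SD of 7 livers. Psmb8 over Psmb5 is higher in krill by 0.83, and the other pairs are lower by 0.44 and 0.49; krill replicate 2 stands highest at 0.69 in the first pair and at -1.28 in the second.

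The immunoproteasome supplies peptides to the antigen-presentation machinery. Of 15 tested antigen-processing and interferon-response genes 1 rose, 8 fell and 6 did not pass, with a median of -0.50. Among all tested genes 22.9% were called higher and 24.8% lower. Ifngr2 was the gene that rose, at 0.77, and it did not pass without the 4 krill arrays (limma adjusted p = 0.52). H2-K1 and H2-D1 stood at -0.095 and 0.011 and did not pass. Tapbp, the tapasin chaperone of peptide loading, changed by -2.41 (SE 0.28), Tap1 and Tap2, which make up the peptide transporter, by -1.04 and -1.36, and the chaperone Calr by -0.75. Tap1 had 114, 193 and 314 in krill livers, against 384, 397 and 555 in control livers, so the groups did not overlap. Irf1, a transcription factor of interferon gamma responses, stood at -0.19 (limma adjusted p = 0.375). Without the 4 krill arrays 8 of these genes were called lower, and Irf1 was among those passing, at -0.51 (limma adjusted p = 0.0366). Leukocytes, which are rich in immunoproteasome, have markers of which 6 of the 10 on the arrays were tested, and Ms4a1 and S100a8 rose while 4 did not pass. Without the 4 krill arrays S100a8 and Coro1a were called higher (limma adjusted p = 0.0387 and 0.0193), and Ms4a1 did not pass (limma adjusted p = 0.136). The log2 of the summed signal of the 10 markers, with those below the signal filter included, was 10.325 to 11.582 in krill and 9.6957 to 10.275 in control livers. Every krill liver thus lay above every control liver, with a narrow gap. Of all tested genes 6.52% had this pattern singly, and with no signal filter the median log2 change of all genes was 0.32. The lowest signal of a tested leukocyte marker was 25.5, in Coro1a of a krill liver, Cd3e, Cd3g, Cd79a and Nkg7 lay below the signal filter, and the part of these markers in the change of Psmb8 was not tested. Of 9 tested Kupffer cell and macrophage markers 2 rose, 3 fell and 4 did not pass. The log2 of the summed signal of the 10 on the arrays was 13.4 to 14.4 in krill and 13.3 to 13.7 in control livers. Endothelial markers had 1 higher and 1 lower of 6 tested, stellate cell markers 1 and 1 of 5, and the single tested cholangiocyte marker did not pass. The single tested muscle marker, Ckm, and pancreas acinar marker, Cela1, rose by 1.08 and 1.31. Without the 4 krill arrays Ckm stood at 0.33 and did not pass, and Cela1 stood at 0.89 and passed (limma adjusted p = 0.515 and 0.00517).

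In the 19S cap none of the 6 ATPases passed in limma, and 2 of them, Psmc2 and Psmc5, had an unadjusted p under 0.05. Their log2 changes ran from -0.33 in Psmc2 to 0.37 in Psmc5, with a median of 0.19, and Psmc1, Psmc3, Psmc4 and Psmc6 stood at 0.18, 0.23, 0.19 and 0.04. Psmc2 passed without control replicate 5 and Psmc5 without krill replicate 7 (limma adjusted p = 0.0469 and 0.0233). Psmc5 also passed with quantile normalization (limma adjusted p = 0.027). Without the 4 krill arrays Psmc1, Psmc3, Psmc4 and Psmc6 were called higher (limma adjusted p = 0.0296, 0.0351, 0.0155 and 0.003). Of the 14 Psmd genes 4 rose, 3 fell and 7 did not pass. Psmd13, a lid subunit, had 1803, 3590 and 4859 in krill livers, against 1353, 1713 and 2103 in control livers, at 1.03 (SE 0.19, limma adjusted p = 0.000364), with 6 of 7 krill livers above all control livers. Psmd5, an assembly chaperone of the cap that leaves the finished particle, had 2575, 2999 and 3773 in krill livers, against 1242, 1952 and 2390 in control livers. Its groups did not overlap and it changed by 0.71 (SE 0.17, limma adjusted p = 0.00269). The ubiquitin receptor Psmd4 changed by 0.69, and Psmd12, a lid subunit, by 0.37, a call that ended when any of 11 of the 14 arrays was left out (limma adjusted p = 0.0192 to 0.0932). Psmd2, a large scaffold subunit, had 683, 1194 and 2852 in krill livers, against 2256, 2391 and 2678 in control livers, at -0.88 (SE 0.28, limma adjusted p = 0.0171). Psmd7, a lid partner of the deubiquitinase Psmd14, had 293, 1110 and 1821 in krill livers, against 1246, 1571 and 1864 in control livers, at -0.80 (SE 0.33, limma adjusted p = 0.0491). In both the krill livers spread far more widely than the control livers. The call of Psmd7 ended when any of 11 of the 14 arrays was left out (limma adjusted p = 0.013 to 0.106). Psmd3, a lid subunit, changed by -0.63, a call that ended without krill replicate 2 or 5 or control replicate 1, 4 or 6 (highest limma adjusted p = 0.0688). The deubiquitinase Psmd14 stood at 0.33 and did not pass, but passed without krill replicate 2, without the 4 krill arrays and with quantile normalization (limma adjusted p = 0.0354, 0.0469 and 0.0294). Psmd1, Psmd6, Psmd8, Psmd9, Psmd10 and Psmd11 did not pass, with changes between -0.33 and 0.34. Of these Psmd10 passed without krill replicate 7 and with quantile normalization (limma adjusted p = 0.0269 and 0.0149). Psmd6 and Psmd8 passed without the 4 krill arrays (limma adjusted p = 0.0138 and 0.00483).

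The comparison was repeated without the 4 krill arrays of high spike-in signal. There 11 of 20 cap genes rose and the other 9 did not pass (limma, adjusted p under 0.05), while 12.7% of all tested genes were called higher and 19.6% lower. In the cap 17 of 20 changes were above 0, with a median of 0.39, and the 4 genes called higher with all arrays were among the 11. Psmc6, an ATPase, stood at 0.81 (limma adjusted p = 0.00303), against 0.04 with all arrays, and Psmd8, a lid subunit, at 0.60, against 0.10. Psmd2 stood at -0.02 and Psmd7 at 0.07, and neither passed (limma adjusted p = 0.92 and 0.784). The 20S core had 9 of 15 genes higher and Psma1 lower in that comparison, 8 of the 9 being called with all arrays too, and a median of 0.44. The median relative to all tested genes was 0.44 for the core and 0.11 for the cap with all arrays, and 0.48 and 0.43 without those 4. With no signal filter, where 18193 genes had a median of 0.32, it was 0.17 for the core and -0.16 for the cap, whose own medians were as before. All krill livers stood above the control mean in the average alpha ring level, by 0.41 to 0.93 on the log2 scale. In the beta ring they stood at 0.07 to 0.74, with krill replicate 7, at 0.07, inside the control range of -0.31 to 0.19. In the Psmd genes krill replicates 1, 3, 4 and 6 stood at 0.31, 0.32, 0.10 and 0.42, while replicates 2, 5 and 7 stood at -0.28, -0.20 and -0.38. With the spike-in level as a covariate, where 6.99% of all genes were called higher and 10.5% lower, the core had 5 genes higher and 1 lower and the cap 5 higher and 15 that did not pass (limma).

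**Figure D4:**
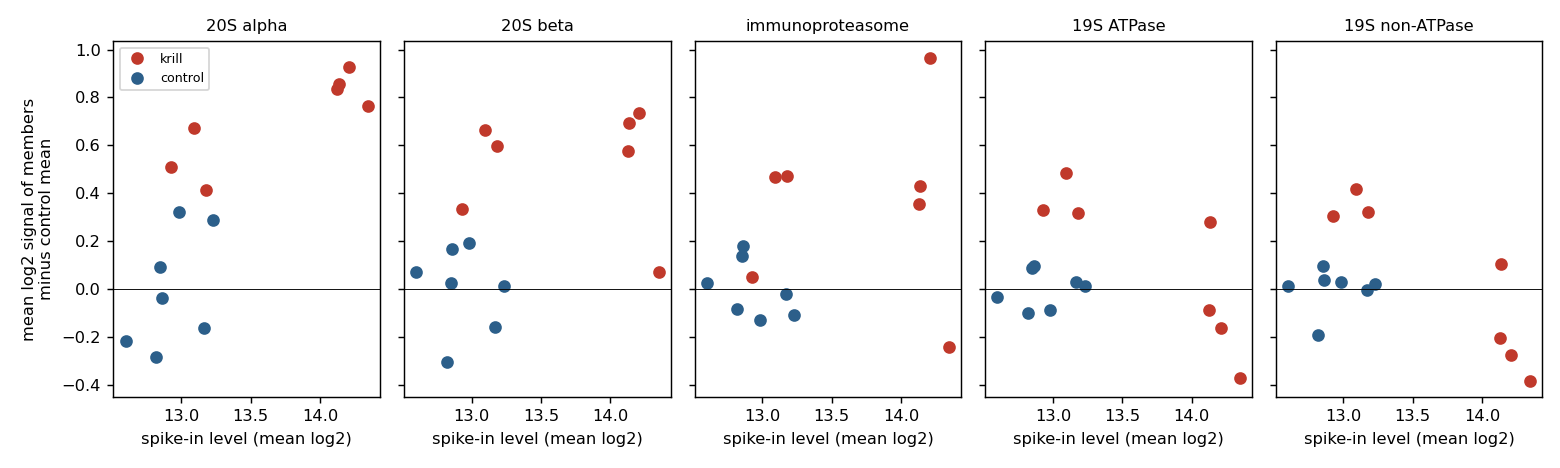
Mean log2 signal of the tested members of each role, minus the control mean, against the spike-in level of the array, for 7 krill and 7 control livers. In the alpha ring the krill livers lie at 0.41 to 0.93, while in the 19S groups the 3 krill livers at low spike-in level lie above 0 and those at high spike-in level lie lower.

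**Figure D5:**
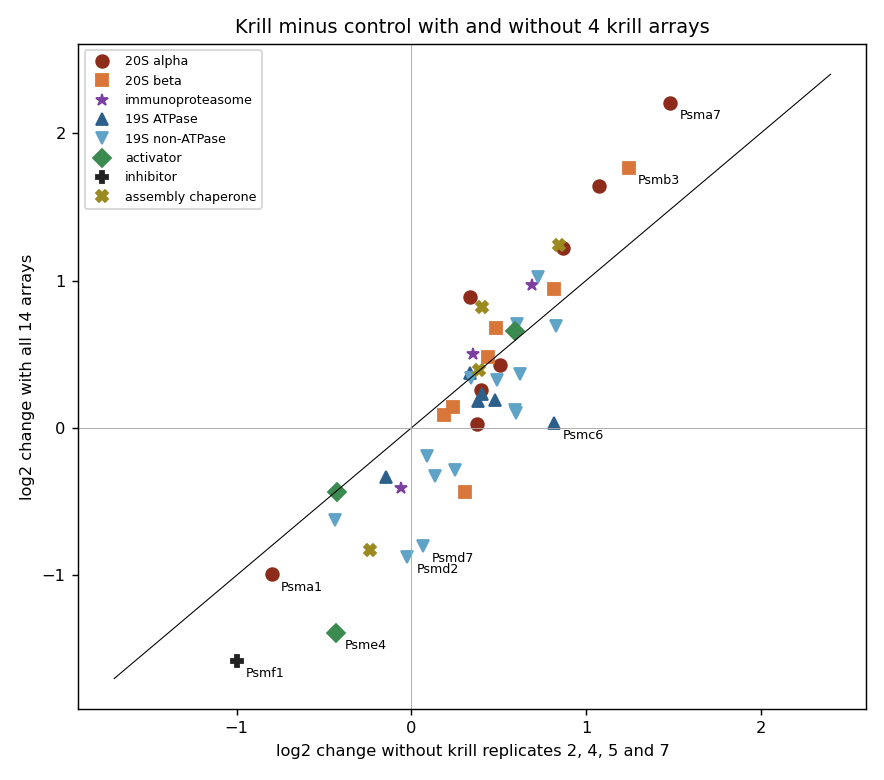
Log2 change with all 14 arrays (vertical) against the log2 change without krill replicates 2, 4, 5 and 7 (horizontal) for the 46 tested genes, by role, with the line of equality. Psma7 moves to 1.48 and Psma1 to -0.80 on the horizontal axis, and Psmd2 and Psmd7 lie near 0 there, at -0.02 and 0.07.

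Among the activators, inhibitor and assembly factors all 8 tested genes passed, 4 higher and 4 lower. Psmf1 had 226, 289 and 566 in krill livers, against 804, 1085 and 1316 in control livers. The groups did not overlap, with a change of -1.58 (SE 0.23, limma adjusted p = 4.97e-05), and it kept its call without the 4 krill arrays (limma adjusted p = 0.00155). Psme4, a large activator of the nuclear proteasome, had 174, 1675 and 4344 in krill livers, against 3426, 4135 and 5072 in control livers, at -1.39 (SE 0.47, limma adjusted p = 0.0216). Krill replicate 2 was lowest, at 174, and without it the change was -0.88 (limma adjusted p = 0.00865). Without all 4 arrays Psme4 stood at -0.43 and did not pass (limma adjusted p = 0.191). Psme1, a subunit of the interferon-inducible activator ring, changed by -0.44 (limma adjusted p = 0.0175). The probe set of its partner Psme2 is also assigned to Psme2b and entered no test, and it read 3770, 5215 and 7480 in krill livers, against 3230, 3603 and 4079 in control livers. Psme3, the activator of the nucleus, changed by 0.66. Psmg3 had 1288, 2161 and 3413 in krill livers, against 600, 1010 and 1280 in control livers, without overlap, at 1.24 (SE 0.21, limma adjusted p = 0.000174). Psmg4 had 1167, 2093 and 4441 in krill livers, against 932, 1253 and 1564 in control livers, at 0.82 (SE 0.22, limma adjusted p = 0.00596), and it stood at 0.41 without the 4 arrays, where it did not pass (limma adjusted p = 0.123). Psmg1 changed by 0.39, a call that ended when any of 11 of the 14 arrays was left out (highest limma adjusted p = 0.0927). Its partner Psmg2 changed by -0.83 (limma adjusted p = 0.00928), and stood at -0.24 without the 4 arrays, where it did not pass (limma adjusted p = 0.248).

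For 21 members more than 1 probe set passed the filter, 53 in all. In 7 of the 21 genes every probe set was called in the same direction (Psma7, Psmb3, Psmb4, Psmb8, Psmd4, Psmf1 and Psmg2), in 7 only some were called, and in 5 none was at the limma threshold. The second Psma7 probe set stood at 1.85, against 2.21 for the chosen one, the second Psmb3 probe set at 1.73, against 1.77, and the other Psmf1 probe sets at -1.31 and -1.44. Probe sets of Psmd13 and Psme3 were called in both directions. Those of Psmd13 stood at 1.03, 0.94 and -1.26 and those of Psme3 at 0.66 and -1.98. The fall of Psma1 also rests on the chosen probe set, since the dimmer one stood at 0.04. Psmd11, a lid subunit, stood at -0.19 on the chosen probe set, while the other 3 ranged from -2.09 to -0.06. When the probe sets of a gene were averaged, the change of Psmd13 was 0.24 and lost its call (limma adjusted p = 0.128), and that of Psme3 turned to -0.66 and was called lower (limma adjusted p = 0.00262). Psmb1 and Psmd7 also lost their calls (limma adjusted p = 0.0729 and 0.0501), Psmc2 and Psmd11 were called lower at -0.48 and -0.77, and Psma8 was called higher (limma adjusted p = 0.0483).

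Of 20 tested genes of proteasome maturation and regulation 3 rose, 7 fell and 10 did not pass, with a median of -0.19. Among all tested genes, for this list and the next, 22.9% were called higher and 24.8% lower. Pomp, the chaperone that matures the core, had 9965, 14398 and 23076 in krill livers, against 4937, 7396 and 8738 in control livers. The groups did not overlap, with a change of 1.06 (SE 0.19, limma adjusted p = 0.000234), and it stood at 1.02 without the 4 arrays. Txnl1, a thioredoxin-like protein bound to the cap, changed by 1.14, and the small cap subunit Sem1, named here after its values were seen, by 0.83. The segregase Vcp, which extracts ubiquitinated proteins, changed by -1.60, and by -0.56 without the 4 arrays, and its cofactor Nploc4 by -1.40. Nfe2l1, the transcription factor that drives proteasome genes when the particle is inhibited, had 662, 914 and 1382 in krill livers, against 930, 1173 and 1358 in control livers, at -0.34 (SE 0.17, limma adjusted p = 0.0938). Its groups overlapped. Of 16 tested genes of ubiquitin conjugation 1 rose and 6 fell, with a median of -0.49, which was 0.00 without the 4 arrays. The rise was Nedd8, the ubiquitin-like modifier of cullins, at 0.89. The conjugating enzymes Ube2d1 and Ube2n and the cullin Cul4a changed by -1.44, -0.79 and -0.91.

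The direction of many members depends on the scale on which arrays are compared. With each array scaled on its spike-ins the median of all tested genes was -0.71, and 9 of the 18 genes called higher (Psma4, Psmb1, Psmb4, Psmb9, Psmd4, Psmd5, Psmd12, Psme3 and Psmg1) had negative changes, while Psma2, Psma3, Psma7, Psmb3, Psmb6, Psmb8, Psmd13, Psmg3 and Psmg4 stayed above 0 and all 8 genes called lower stayed below. The median of the 20S core was then -0.30 and that of the 19S cap -0.63, and relative to all tested genes they were 0.41 and 0.08. With arrays centred on their medians, where all tested genes had a median of -0.36, the core stood at 0.08 and the cap at -0.25, which is 0.44 and 0.11 relative to all genes. With quantile normalization all 26 called genes kept their sign, and the core and cap stood at 0.39 and 0.15. Spread also differed between the diets, as the SD of the log2 signal was larger in krill than in control livers for 39 of 46 members, which is 84.8%, and for 87.3% of all tested genes.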

How the data were processed

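Liver RNA of 7 krill-fed and 7 control-fed mice was hybridised to Affymetrix arrays, 1 mouse per array. The authors deposited MAS5 intensity values per probe set, per the submitters' processing notes, with no version of MAS5 named in them. The trimmed mean was the same on every array, and the probe-to-gene table gave 1 symbol for 34945 probe sets, several for 932 and none for 9160. Values were used as log2(signal + 16), which understates changes of dim genes. Probe sets in the upper 50% of mean signal were kept (22518), each gene was represented by its brightest probe set on average, and 11308 genes were fitted with limma 3.58.1 (lmFit, eBayes with trend, R 4.3.3) with Benjamini-Hochberg adjustment over all of them at 0.05. The 3 within-array ratios were tested with an exact permutation test (Python 3.11.15, numpy 2.4.6, scipy 1.17.1, pandas 2.3.3), and figures were drawn with matplotlib 3.10.9.

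On simulated data the fit called 58 of 100 genes shifted by 1 and 90 of 100 shifted by 2 on the log2 scale, and 11 of 11108 unchanged genes, among 11308 genes. The members, gene lists, markers and the krill arrays left out were chosen with earlier results of these data known. Genes described with values in each diet were the 2 largest rises and the 2 largest falls past the threshold in each role, with the Psme, Psmf and Psmg genes taken as 1 role, and the 6 catalytic subunits. Genes of the lists were those with the smallest p, up to 4 a list, and Pomp, Nfe2l1 and Irf1. Sem1, Ifngr2, H2-K1 and H2-D1 were named in addition, outside that rule. Replicate numbers did not pair the mice, as deviations of same-numbered mice correlated at -0.02 to 0.10. Alternatives covered the pseudocount, normalization, filter, probe set choice, variance model, array weights, technical covariates and arrays used. Promoters came from RefSeq on GRCm38.p6.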

Additional observations from a re-analysis of the deposited data

Results flagged for a closer look

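In 10 of 100 groups of 7 arrays the highest or lowest value stood far from the others, where chance alone gives about 1 in 20. Krill replicate 2 had the lowest Psme4 signal, at 174, with the next at 1493, and the lowest Psmd14 signal, at 2021, with the next at 2924. It also had the highest log2 ratio of Psmb8 to Psmb5, at 0.69, with the next at -0.52, and of Psmb9 to Psmb6, at -1.28, with the next at -1.80. Krill replicate 7 had the lowest Psmb5 signal, at 2514, with the next at 3562, and the lowest Psmd4 signal, at 2766, with the next at 4728. Krill replicate 1 had the lowest Psmd13 signal, at 1803, with the next at 3493. Control replicate 5 had the lowest Psmb10 signal, at 1057, with the next at 1282, and the lowest Psmd1 signal, at 2283, with the next at 2768. Control replicate 1 had the lowest Psmd4 signal, at 2599, with the next at 3095.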

How the results depend on the processing

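Over the log2 changes of the 18 genes described with values in both diets, 449 values under the alternatives kept their direction and side of the threshold, 54 lost the threshold, 5 passed it and 14 changed sign, and the causes were not tested. The 18 members called higher became 6 with arrays centred on their medians, 3 with arrays scaled on spike-ins, 11 with the spike-in covariate and 0 with the 3' to 5' index covariate in limma. The 8 called lower became 14 with spike-in scaling, 2 with the spike-in covariate, 0 with the index covariate and 3 without krill replicates 2, 4, 5 and 7. Of all tested genes 8.85% were called higher and 33% lower with median centring, and 2.97% and 48.2% with spike-in scaling. The shares were 6.99% and 10.5% with the spike-in covariate, and 12.7% and 19.6% without those 4 krill arrays. The 5397 genes called became 8729 with every probe set tested (more tests), 1978 with the spike-in covariate and 0 with the index covariate, where 1873 had an unadjusted p under 0.05. With quantile normalization the ratios of Psmb9 to Psmb6 and Psmb10 to Psmb7 were -0.249 and -0.0607, and without the 4 krill arrays (fewer samples) the 3 ratios were 0.45, -0.46 and -0.25. Signs turned with spike-in scaling for Psmb9 (-0.28), Psmd5 (-0.0746), Psmb5 (-0.64) and Psmb7 (-0.70). They turned with the spike-in covariate for Psmd2 (0.0637), Psmd7 (0.19) and Psmb10 (0.00067), and with the index covariate for the same genes (0.14, 0.62 and 0.0375). They also turned without the 4 krill arrays for Psmd7 (0.0658), with median centring for Psmb5 (-0.26) and Psmb7 (-0.31), and with quantile normalization for Psmb7 (-0.14). Leaving out 1 array at a time gave 14 to 20 members higher, 6 to 9 lower and 4680 to 6147 genes called. The ratio differences then ran from 0.63 to 0.94, from -0.53 to -0.41 and from -0.58 to -0.41. With the replicate number as a block 16 members were higher and 8 lower and 5253 genes were called, the ratio differences stayed at 0.83, -0.44 and -0.49, and each same-numbered pair shared only a number, since only krill replicate 5 correlated best with its own.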
